A study of Mus musculus with 39 samples.

Results

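The regions described here are windows around 10 genes of the pluripotency network: Pou5f1, Sox2, Nanog, Esrrb, Tfcp2l1, Klf4, Tbx3, Zfp42, Prdm14 and Dppa3. They were chosen by gene and by position on mouse build mm9, with windows of 14 to 171 kb, and not by any methylation value. Earlier results of these data were known when they were chosen. They hold 273 of the 330387 single CpGs of the study and 197 of its 377684 tiles of 200 bp, of which 161 have values used below. DNA methylation was measured in mouse embryonic stem cells (mESC) that were wild type (WT) or lacked p53 (p53-/-, here p53-null), the tumour suppressor and stress-response factor encoded by Trp53. The mESC came from morulas at embryonic day 2.5, from matings of p53+/- mice of the 129s-Trp53tm2Tyj/J strain, and were derived on irradiated mouse feeder cells in 2i medium. The RA groups were depleted of feeders and treated with 1 uM retinoic acid for 4 days to induce differentiation. The labels do not say whether feeder cells were removed from the naive cultures, nor how many lines or clones a group holds.

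RRBS, bisulfite sequencing of a reduced part of the genome, reads CpG-rich fragments between MspI sites and scores as methylated both 5-methylcytosine (5mC) and its oxidation product 5-hydroxymethylcytosine (5hmC); their sum is named total methylation. Its oxidative form (oxRRBS) reads 5mC alone. RRBS was made from 5 naive WT, 3 naive p53-null, 5 RA WT and 4 RA p53-null libraries, and oxRRBS from 5, 3, 4 and 4. The tables used give 1 value per group and none per library, so levels carry no SD and no n, depth is unknown, and no difference could be set against the spread between libraries. Significance is therefore given only as q-values from the authors' deposited table. The 6 liver libraries, 3 WT and 3 p53-null males of 16 weeks, were not analysed here, since no column is named for them.

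Pou5f1 (Oct4), Sox2 and Nanog form the core of the transcription factor circuit that keeps mESC undifferentiated. Esrrb, Tfcp2l1, Klf4, Tbx3 and Zfp42 (Rex1) belong to the naive layer of that circuit and are switched off early when cells leave the naive state. Prdm14 represses de novo methyltransferase genes and Dppa3 (Stella) limits maintenance methylation, and both help to keep the naive genome poorly methylated. Silenced pluripotency genes are known to gain methylation at promoters and enhancers during differentiation.

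The promoters of these genes differ widely in the number of CpGs and of CCGG, the site at which MspI cuts. RefSeq promoter entries on build GRCm38.p6 were at hand for 7 of the 10 genes. The 250 bases before the start of Nanog (chr6:122707239-122707488, plus strand), Pou5f1 (chr17:35505782-35506031, plus), Zfp42 (chr8:43307010-43307259, minus), Sox2 (chr3:34649745-34649994, plus) and Klf4 (chr4:55532476-55532725, minus) are shown 5′ to 3′, because the first 3 hold far fewer CpGs than the last 2. Capitals mark CCGG and the letters ATGCAAA on either strand (TTTGCAT on the printed one), most of the octamer that POU factors such as Oct4 bind.
Nanog: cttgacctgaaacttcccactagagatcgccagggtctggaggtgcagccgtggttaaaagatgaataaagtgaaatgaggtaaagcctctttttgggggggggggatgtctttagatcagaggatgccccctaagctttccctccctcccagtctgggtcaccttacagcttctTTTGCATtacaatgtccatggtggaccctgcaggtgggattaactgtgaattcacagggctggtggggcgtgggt
Pou5f1: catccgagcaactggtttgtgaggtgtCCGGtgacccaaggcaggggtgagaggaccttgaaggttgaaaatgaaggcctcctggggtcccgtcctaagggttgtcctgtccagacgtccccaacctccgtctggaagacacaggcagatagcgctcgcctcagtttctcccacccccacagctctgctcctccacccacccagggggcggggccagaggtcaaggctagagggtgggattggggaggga
Zfp42: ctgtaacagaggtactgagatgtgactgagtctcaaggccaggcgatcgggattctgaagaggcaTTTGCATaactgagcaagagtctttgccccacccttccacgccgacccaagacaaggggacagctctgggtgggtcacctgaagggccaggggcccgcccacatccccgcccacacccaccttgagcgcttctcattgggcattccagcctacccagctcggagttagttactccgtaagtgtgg
Sox2: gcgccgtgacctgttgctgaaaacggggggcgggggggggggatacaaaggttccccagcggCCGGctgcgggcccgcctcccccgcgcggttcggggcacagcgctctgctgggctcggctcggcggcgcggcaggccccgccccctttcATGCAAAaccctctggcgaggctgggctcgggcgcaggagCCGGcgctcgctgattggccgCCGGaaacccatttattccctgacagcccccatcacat
Klf4: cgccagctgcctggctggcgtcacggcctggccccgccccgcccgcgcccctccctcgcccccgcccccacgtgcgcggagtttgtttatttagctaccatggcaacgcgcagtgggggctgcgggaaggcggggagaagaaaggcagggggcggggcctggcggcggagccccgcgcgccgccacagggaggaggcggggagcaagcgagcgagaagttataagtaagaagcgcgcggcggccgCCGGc
The stretches hold 3 CpGs in Nanog, 8 in Pou5f1, 9 in Zfp42, 27 in Sox2 and 32 in Klf4, against a median of 6 over the 32851 promoters of the table. CCGG was found in 5 of the 7 matched promoters and in 47.1% of all promoters, and it was not among the letters shown for Nanog and Zfp42. ATGCAAA, which does not overlap CCGG, was found in 3 of the 7 (Nanog, Sox2 and Zfp42) and in 4.12% of all promoters. The methylation tables are on mm9, so no methylation value was assigned to these bases and no CpG below is called promoter, exon or enhancer. Where a gene has more than 1 entry, the more upstream start is shown.

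Across the 10 windows total methylation was low in naive cells and higher after RA in both genotypes. The 273 CpGs averaged 4.14% in naive WT, 5.62% in naive p53-null, 10.2% in RA WT and 9.90% in RA p53-null cells. The corresponding means over all CpGs were 9.77%, 12.6%, 16.3% and 15.1%. The 866 CpGs within 250 kb on either side of the windows averaged 10.45%, 13.5%, 19.6% and 18.4%, so the windows were the lower in each of the 4 groups. CpGs at 0 in all 4 columns made up 31.5% of the members and 33.1% of all CpGs.

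**Figure D1:**
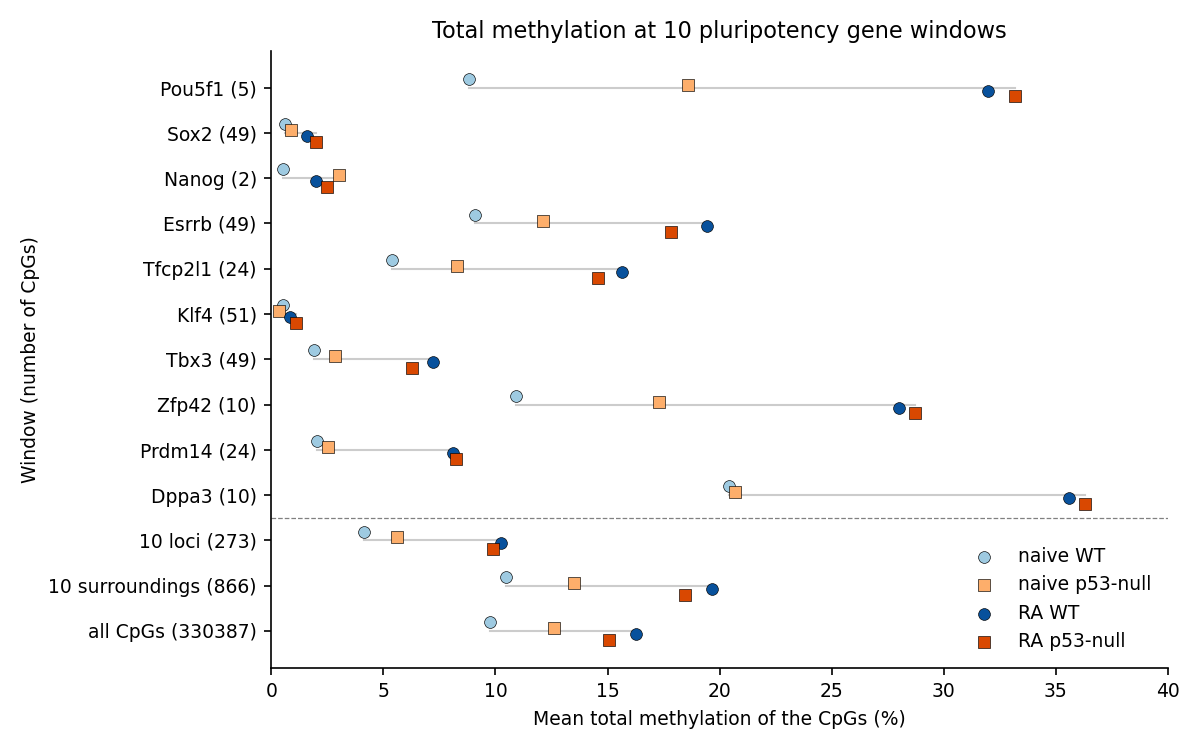
Mean total methylation (x axis, %) of the CpGs in each window, in all 10 windows, in their surroundings and over all CpGs, with the number of CpGs in brackets. Each point is a pooled group and has no error bar. Pou5f1, Zfp42 and Dppa3 reach 28.0% to 36.3% after RA, while Sox2, Nanog and Klf4 stay at or under 3%.

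The core factors differed from each other. At Pou5f1 the 5 CpGs averaged 8.80% in naive WT, 18.6% in naive p53-null, 32% in RA WT and 33.2% in RA p53-null cells, the largest RA difference of the 10 windows in WT cells (23.2 points). The values came mostly from a pair of neighbouring CpGs. The CpG at chr17:35651449-35651450 was at 27% in naive WT, 53% in naive p53-null, 63% in RA WT and 71% in RA p53-null cells. Its neighbour at chr17:35651477-35651478 was at 14%, 29%, 55% and 60% in the same order. Both were thus higher in p53-null cells in either state, and both were higher after RA. Another site, at chr17:35644995-35644996, was at 3% in both naive columns and at 30% in WT against 19% in p53-null cells after RA.

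Sox2, which partners Oct4 on DNA, had 49 measured CpGs, of which 46 stayed at or under 5% in all 4 columns. Its window averaged 0.592%, 0.857%, 1.57% and 1.98% in naive WT, naive p53-null, RA WT and RA p53-null cells. Of the other 3, the CpG at chr3:34552709-34552710 was at 0% except for 8% in RA p53-null cells. The remaining pair lay near the ends of the window. The CpG at chr3:34555761-34555762 was at 3% in naive WT, 23% in naive p53-null, 31% in RA WT and 23% in RA p53-null cells. The CpG at chr3:34543015-34543016 was at 10%, 13%, 32% and 42%. For Nanog the table holds only 2 CpGs, between 0% and 6% in every group, so this window says little about the gene.

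Among the naive factors, Klf4 resembled Sox2 in level. Of its 51 CpGs, 45 stayed at or under 5% in all 4 columns, the highest single value was 15%, and the means were 0.510%, 0.333%, 0.824% and 1.10% in naive WT, naive p53-null, RA WT and RA p53-null cells. Together the Sox2 and Klf4 windows held 100 of the 273 CpGs, and 91 of these stayed at or under 5%.

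Esrrb, an orphan nuclear receptor gene, has the longest window, with 49 CpGs. Many of them lay in a block from chr12:87762631 to chr12:87764574 that stayed at or under 25% in every column. The 49 CpGs averaged 9.08% in naive WT, 12.1% in naive p53-null, 19.4% in RA WT and 17.8% in RA p53-null cells. In WT cells 9 of them were higher after RA by at least 25 points. The CpG at chr12:87849321-87849322 was at 3% in naive WT and 54% in RA WT cells, and at 14% and 47% in p53-null cells. The CpG at chr12:87831765-87831766 was at 7% and 55% in WT and at 16% and 55% in p53-null cells. The largest genotype difference of any member CpG was also here, at chr12:87702933-87702934. It was at 18% in naive WT and 62% in naive p53-null cells, and at 59% and 61% after RA, so naive WT was the only low value of the 4.

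Tfcp2l1, a naive-state transcription factor gene, showed a sharp contrast within its window. A block of 16 CpGs from chr1:120524604 to chr1:120525025 stayed at or under 12% in every column, and 12 of its CpGs were at 0 in all 4. Outside that block the CpG at chr1:120522359-120522360 was at 0% in both naive columns and at 33% in WT against 27% in p53-null cells after RA. The CpG at chr1:120585377-120585378 was at 38% in naive WT, 36% in naive p53-null, 79% in RA WT and 83% in RA p53-null cells. The window means were 5.38%, 8.29%, 15.6% and 14.6%.

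Tbx3, a T-box factor gene, averaged 1.90% in naive WT, 2.86% in naive p53-null, 7.22% in RA WT and 6.29% in RA p53-null cells over 49 CpGs, 35 of them at or under 5% throughout. Its sites of largest RA difference lay near the window's ends. The CpG at chr5:120115914-120115915 was at 3% in naive WT and 55% in RA WT cells, and at 17% and 39% in p53-null cells. The CpG at chr5:120137884-120137885 was at 12% and 59% in WT and at 14% and 38% in p53-null cells. Both were lower in p53-null than in WT cells after RA.

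Zfp42, a zinc finger gene widely used as a marker of the naive state, averaged 10.9% in naive WT, 17.3% in naive p53-null, 28.0% in RA WT and 28.7% in RA p53-null cells over 10 CpGs. The 3 CpGs with an RA difference of at least 25 points in WT cells were neighbours. At chr8:44380964-44380965 the values were 24%, 43%, 64% and 62% in that order. At chr8:44381060-44381061 they were 5%, 27%, 47% and 41%. The naive p53-null value thus lay between naive WT and the RA values at both sites.

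**Figure D2:**
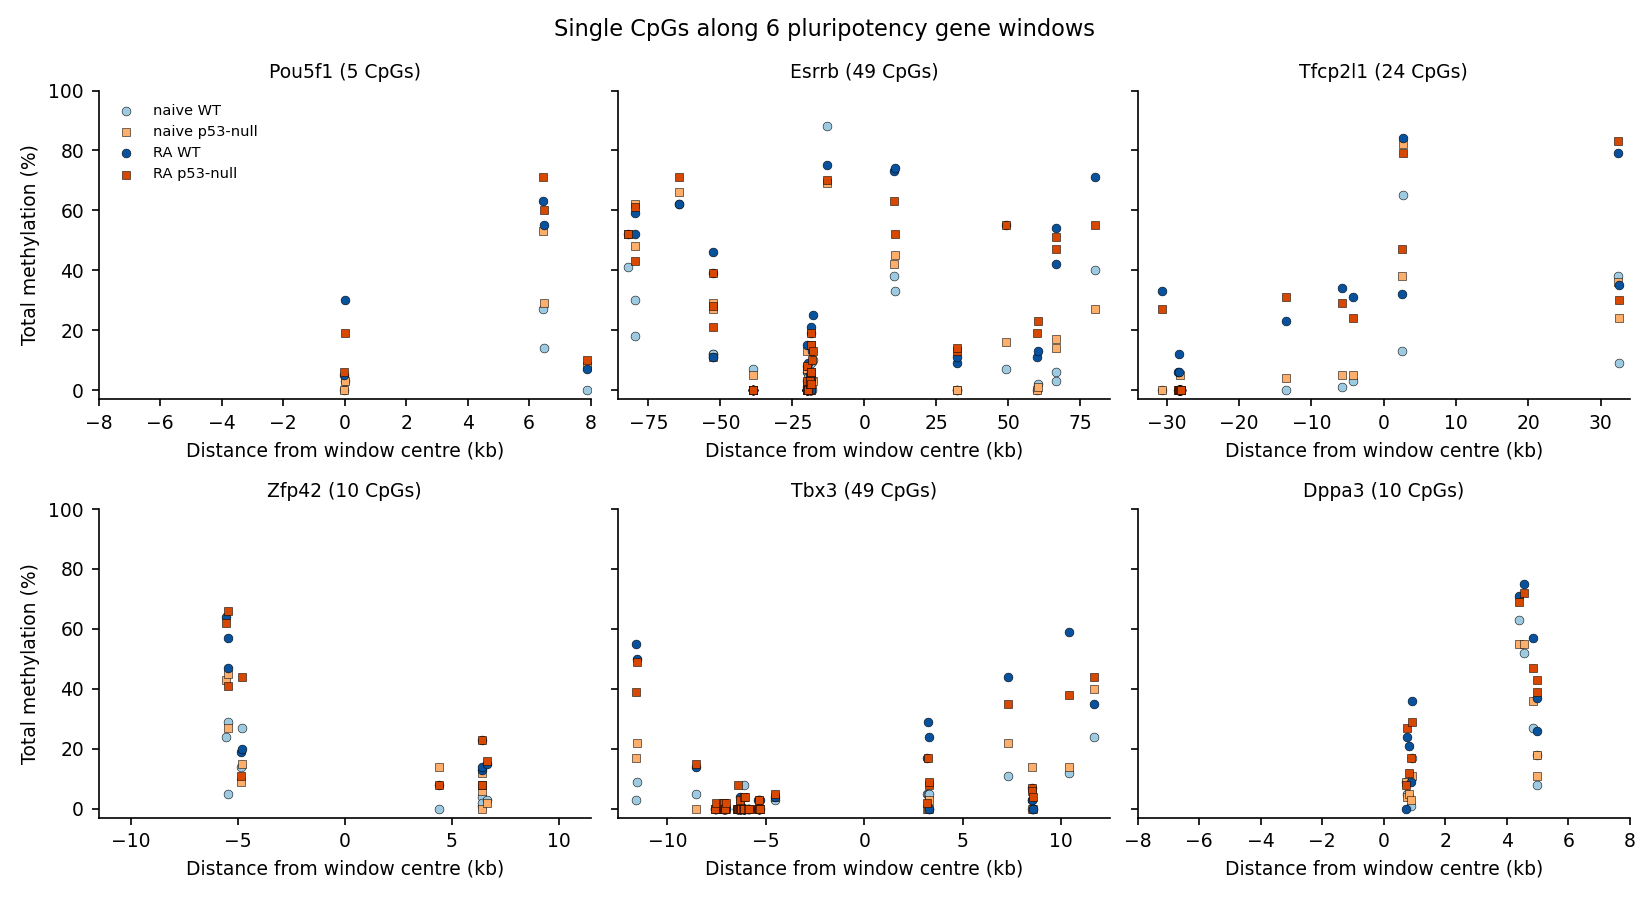
Total methylation (y axis, %) of each measured CpG by distance from the window's centre (x axis, kb) in 6 windows, with 1 point per pooled group. Points that coincide hide each other. CpG-dense blocks at Tfcp2l1 and Tbx3 lie at or near 0 in every group, while isolated CpGs reach up to 88%.

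The regulators of methylation itself also differed. Dppa3 was the most methylated window in naive cells, with 20.4% in WT against 20.7% in p53-null cells, and reached 35.6% and 36.3% after RA. Its 10 CpGs fell into 5 sites near chr6:122578732, at up to 17% in naive cells, and 5 sites from chr6:122582396, the highest of which was at 63% in naive WT and 55% in naive p53-null cells. At chr6:122582847-122582848 the values were 27% in naive WT, 36% in naive p53-null, 57% in RA WT and 47% in RA p53-null cells. Prdm14 averaged 2.04% and 2.54% in naive WT and p53-null cells and 8.08% and 8.25% after RA. Its CpG at chr1:13108854-13108855 was at 9% in naive WT, 3% in naive p53-null, 44% in RA WT and 47% in RA p53-null cells. The CpG at chr1:13116925-13116926 was at 1% and 0% in naive and at 26% and 24% in RA-treated cells, within a stretch of CpGs that were mostly under 10%.

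Ordered by the RA difference in WT cells, the windows were Pou5f1 (23.2 points), Zfp42 (17.1), Dppa3 (15.2), Esrrb (10.3), Tfcp2l1 (10.2), Prdm14 (6.04), Tbx3 (5.33), Nanog (1.5), Sox2 (0.980) and Klf4 (0.314). In p53-null cells the same windows differed by 14.6, 11.4, 15.6, 5.67, 6.29, 5.71, 3.43, -0.5, 1.12 and 0.765 points. The spread that would tell which neighbours in this order differ is not known.

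In WT cells 28 of the 273 CpGs, in 8 windows, were higher after RA by at least 25 points, which is 10.3% of the members and 11.7% of all CpGs. No member was lower by as much (0.0660% of all CpGs). In p53-null cells 14 member CpGs, 5.13%, were higher by at least 25 points, against 4.29% of all CpGs, and none was lower (0.864%). The surroundings lay above the windows in both genotypes, with 151 of 866 CpGs (17.4%) higher by at least 25 points in WT and 72 (8.31%) in p53-null cells. Of the 28 CpGs chosen in WT cells, 26 also had the higher value after RA in p53-null cells. The same share was not computed over all CpGs, so this count does not tell whether the windows differ from the rest. At 10 points or more, 60 members were higher after RA and 1 lower in WT cells (23.8% and 0.802% of all CpGs), and in p53-null cells 48 were higher and 1 was lower (14.1% and 4.46%). CpGs that were at or under 5% in naive WT and at or over 20% in RA WT cells numbered 17, or 6.23% of the members, against 39 (4.50%) of the CpGs of the surroundings and 2.03% of all CpGs.

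The RA difference averaged 6.10 points (WT) and 4.29 points (p53-null) over the windows, against 9.19 and 4.97 points in the surroundings and 6.48 and 2.49 points over all CpGs. The p53-null difference was therefore 70.3% of the WT one in the windows, 54.0% in the surroundings and 38.4% over all CpGs. The median difference was 0 in both genotypes, in the windows and over all CpGs, and whether these ratios differ beyond error was not tested. Within the inner 50% of each window the RA difference was 3.54 points (WT) and 2.70 points (p53-null).

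The RA difference in the windows was smaller where more CpGs were measured per tile. The 39 member CpGs that were alone in their tile had RA differences of 17.7 points (WT) and 12.6 points (p53-null), and all 63543 such CpGs had 17.2 and 4.94 points. Members with 2 to 3 measured CpGs per tile differed by 10.4 and 7.04 points, and all such CpGs by 11.7 and 5.36 points, so over all CpGs the p53-null difference was not smaller in this class than among lone CpGs. The 67 members in the densest tiles, with at least 9 measured CpGs, had RA differences of 0.657 points (WT) and -0.134 points (p53-null). Of the 28 CpGs past 25 points in WT cells, 14 were alone in their tile, 13 lay in tiles of 2 to 3, and 1 lay in a denser tile. Naive WT levels of the members were lower than those of all CpGs also among CpGs alone in their tile, 15.6% against 30.6%.

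**Figure D3:**
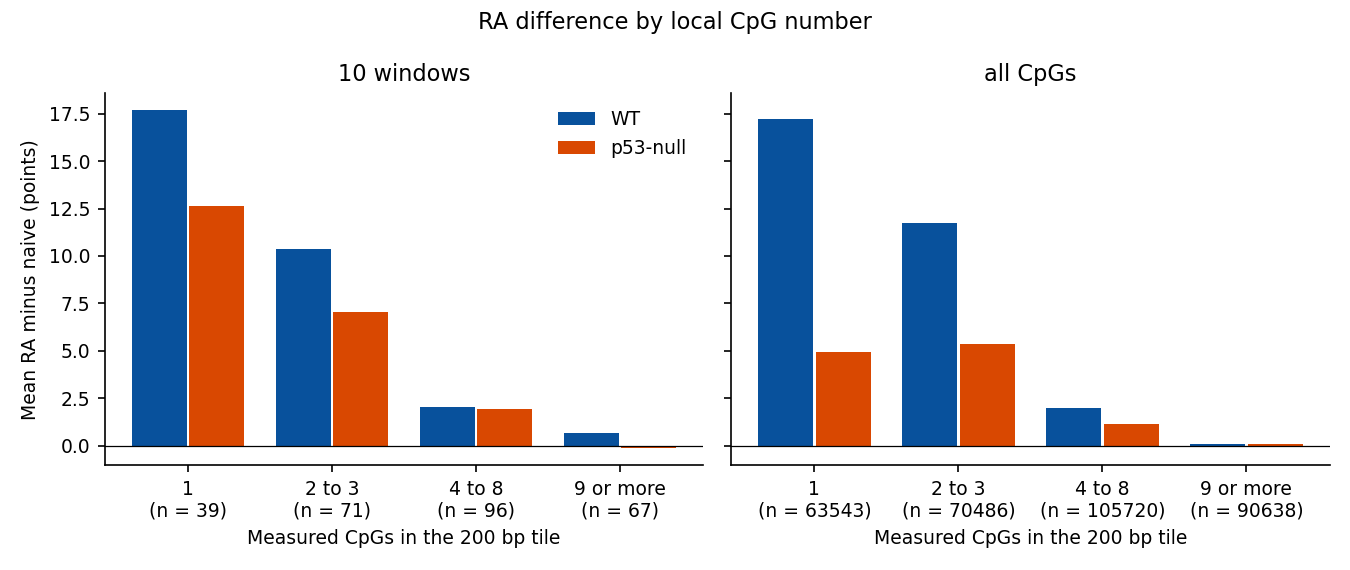
Mean RA minus naive difference in total methylation (y axis, points) by the number of measured CpGs in the 200 bp tile (x axis, n CpGs below), for the 10 windows and for all CpGs. Bars are pooled WT and p53-null values without error; the first class of the windows stands at 17.7 and 12.6 points, that of all CpGs at 17.2 and 4.94 points.

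Between the genotypes, naive p53-null cells had the higher mean in 9 of 10 windows and the lower in 1, Klf4 (-0.176 points). The mean difference was 1.48 points over the windows and 2.82 points over all CpGs. It was 9.80 points at Pou5f1, 6.40 at Zfp42, 3.06 at Esrrb, 2.92 at Tfcp2l1, 2.5 at Nanog, 0.959 at Tbx3, 0.5 at Prdm14, 0.3 at Dppa3 and 0.265 at Sox2. With the inner 50% of each window the mean fell to 0.541 points, and with each window counting once it was 2.65 points. At 10 points or more, 26 member CpGs were higher in naive p53-null cells (9.52%, against 14.0% of all CpGs) and 3 were lower (1.10% against 1.88%). At 25 points or more, 3 were higher (1.10% against 3.75%), 1 each at Esrrb, Pou5f1 and Tfcp2l1, and none was lower (0.192%). The CpG at Tfcp2l1, chr1:120555501-120555502, was at 13% in naive WT, 38% in naive p53-null, 32% in RA WT and 47% in RA p53-null cells.

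After RA the genotype difference was smaller in size than in naive cells in 7 windows and larger in 3, Dppa3, Sox2 and Klf4 (0.7, 0.408 and 0.275 points). Member CpGs that differed between the genotypes by any amount numbered 155 after RA and 127 in naive cells. Those with equal values numbered 118 and 146 of 273, against 154328 and 167650 of 330387 over all CpGs. More CpGs thus differed after RA over all CpGs as well. The mean over the windows was -0.333 points for p53-null minus WT, with 7 windows higher and 3 lower (Esrrb -1.61, Tfcp2l1 -1.04 and Tbx3 -0.939 points), and -1.17 points over all CpGs. With each window counting once it was 0.0357 points. At 10 points or more, 8 member CpGs were higher in p53-null cells (2.93% against 3.45% of all CpGs) and 16 were lower (5.86% against 9.10%). None passed 25 points in either direction (0.281% of all CpGs higher, 1.15% lower).

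The tile table adds the authors' own test and separates 5mC. It has 2 sets of columns that give genotype and modification but no cell state, here named first set and second set. Both come from mESC, since the labels give oxRRBS libraries for mESC alone. Over member tiles, first-set total methylation averaged 9.41% (WT) and 13.05% (p53-null), and second-set 21.7% and 20.7%. Member CpGs averaged 4.14% and 5.62% in naive cells and 10.2% and 9.90% after RA. The first set was thus the lower, with p53-null above WT, as in naive cells. The second was the higher, with p53-null below WT, as in RA-treated cells. The headings do not state this, so the sets keep their names here. Whether the tile table rests on the same libraries as the CpG table is not stated, so it was not taken as independent support for the values above. A tile is named as called where the deposited q is under 0.05 and the difference at least 10 points.

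In the first set total methylation over 142 member tiles was 9.41% on average in WT against 13.05% in p53-null cells, 3.64 points apart, compared with 8.65 points over all tiles. The median difference was 1.11 points in the windows and 6.70 over all tiles. The authors' deposited table called 17 member tiles higher and 0 lower in p53-null cells, that is 11.97% and 0% of the members against 28.1% and 0.786% of all tiles. In the surroundings it called 158 of 672 tiles higher, 23.5%, and 3 lower. Of the 17 tiles, 9 were at Esrrb, 2 each at Tbx3, Tfcp2l1 and Zfp42, and 1 each at Pou5f1 and Sox2.

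**Figure D4:**
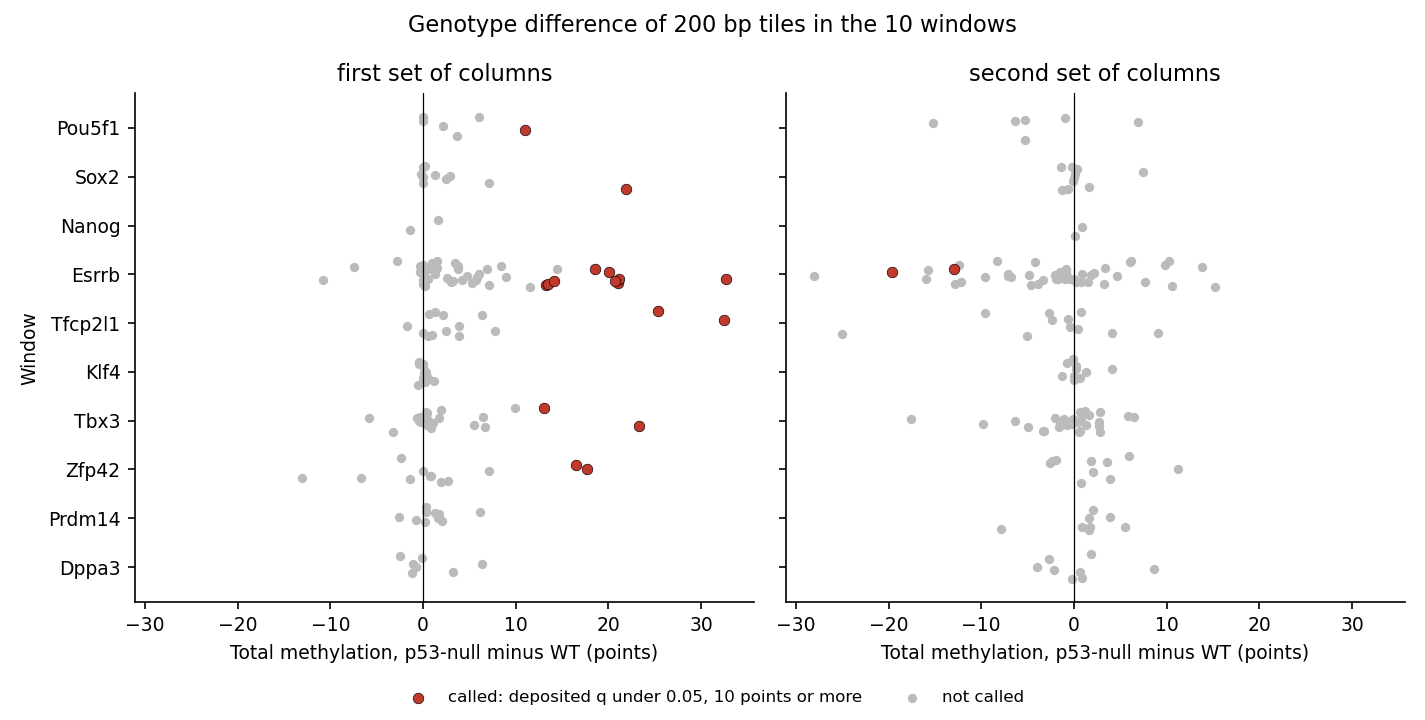
Difference in total methylation between p53-null and WT cells (x axis, points) for every tile of the 10 windows (rows), in the first (left) and second (right) set of columns. Red points are called in the authors' deposited table; all 17 on the left lie above 0 and both on the right below 0. Vertical position within a row is random.

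The largest of these called differences were at Esrrb and Tfcp2l1. The tile at chr12:87781801-87782000 was at 11.1% in WT against 43.8% in p53-null cells (q = 0.000900 in the authors' deposited table). The tile at chr1:120555601-120555800 was at 42.1% and 74.5% (q = 0.00695 in the authors' deposited table), and its neighbour at chr1:120555401-120555600 at 48.9% and 74.3% (q = 0.00330 there, in the authors' deposited table). These adjoining tiles of Tfcp2l1 include the CpG of largest naive genotype difference in that window. The tile at chr17:35651401-35651600, which holds the pair of Pou5f1 CpGs described above, was at 19.3% in WT against 30.3% in p53-null cells (q = 0.00790 in the authors' deposited table). At Zfp42 the tile at chr8:44381001-44381200 was at 24.8% and 42.4% (q = 5.68e-08 in the authors' deposited table). At Tbx3 the tile at chr5:120116001-120116200 was at 2.27% and 25.6%, and at Sox2 the tile at chr3:34555801-34556000 was at 0% and 21.9%, with q = 0.00335 and 0.000177 in the authors' deposited table. In WT cells 5mC of these Tbx3 and Sox2 tiles was 4.88% and 7.07%, above their own totals. The same held for chr12:87781801-87782000 (13.8% against 11.1%) and chr1:120555601-120555800 (55.2% against 42.1%). Such values cannot be true levels, so these WT levels carry an error that is not known. Of these tiles only the Esrrb one was called in 5mC.

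5mC of the first set was 7.24% on average in WT against 10.54% in p53-null cells, 3.30 points apart, against 9.51 points over all tiles. The authors' deposited table called 20 member tiles higher (14.1% against 36.6% of all tiles) and 5 lower (3.52% against 6.03%) in 5mC. Esrrb held 12 of the 20 higher and 3 of the 5 lower tiles. At Esrrb the tile at chr12:87700001-87700200 was at 2.00% 5mC in WT against 53.7% in p53-null cells (q = 5.22e-12 in the authors' deposited table). Its total methylation was 42.1% and 56.5%, a difference that was not called (q = 0.185 in the authors' deposited table). Total minus 5mC was thus 40.1% in WT cells, the highest first-set WT value of the member tiles. At Tbx3 the tile at chr5:120138801-120139000 was at 35.8% and 79.4% (q = 2.22e-12 in the authors' deposited table), although its total methylation was 50.8% and 45.0%. A 5mC value above the total cannot be a true level, so such tiles carry an error that is not known. This held in p53-null cells for most, though not all, of the 20 tiles called higher. At Esrrb chr12:87701601-87701800, p53-null 5mC was 43.1% against a total of 31.6%. At Tbx3 chr5:120118601-120118800 it was 31.25% against 10%. A lower tile lay at Zfp42, chr8:44397201-44397400, with 81.0% in WT against 58.6% in p53-null cells (q = 0.000133 in the authors' deposited table), and another at Prdm14, chr1:13108801-13109000, with 13.8% and 1.07%. In WT cells 5mC was above the total in most, though not all, of the 5 lower tiles. At the Prdm14 tile the WT total was 8.02%, and at the Zfp42 tile it was 80.9%, just under the 5mC value.

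In the second set total methylation over 140 member tiles was 21.7% on average in WT against 20.7% in p53-null cells, -0.984 points apart, compared with -3.18 points over all tiles. Without the Esrrb window it was -0.356 points. The authors' deposited table called 0 member tiles higher and 2 lower (0% against 0.481% and 1.43% against 3.65% of all tiles), both at Esrrb. These were chr12:87731401-87731600, from 78.1% in WT to 58.5%, and chr12:87821601-87821800, from 42.5% to 29.6%, with q = 0.0479 and 0.0111 in the authors' deposited table. 5mC differed by -0.952 points in the windows and by -4.07 points over all tiles. Here the authors' deposited table called 7 member tiles higher (5% against 2.81% of all tiles) and 3 lower (2.14% against 12.3%), while in the surroundings it called 16 of 670 higher and 72 lower. The higher tiles were 3 at Esrrb and 1 each at Dppa3, Sox2, Tbx3 and Tfcp2l1. Except at Tfcp2l1, each of them had a p53-null 5mC value above its own total, which cannot be a true level. None of them was called in total methylation. Each of the 3 lower tiles had a WT 5mC value above its own total. At Tbx3, chr5:120135201-120135400, it was 57.1% against 25%. The Dppa3 tile at chr6:122583401-122583600 was at 7.74% 5mC in WT against 30.6% in p53-null cells (q = 0.000732 in the authors' deposited table), while total methylation of this tile was 9.77% and 10.47%.

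5hmC, taken as total minus 5mC, was small in the windows, and so was total methylation. In the first set total methylation was 9.41% (WT) and 13.05% (p53-null), against 30.1% and 38.8% over all tiles. The mean 5hmC of that set was 2.17% (WT) and 2.51% (p53-null), against 5.96% and 5.10% over all tiles. In the second set it averaged 1.66% and 1.63%, against 1.96% and 2.84%. In the first set 14 member tiles in WT and 21 in p53-null cells had 10 points or more, while 4 and 8 had -10 points or less, values that no true level can take. As shares these were 9.86% and 14.8% of member tiles at the upper limit, against 31.7% and 30.5% of all tiles, and 2.82% and 5.63% at the lower, against 8.09% and 11.01%. Second-set values reached at least 10 points in 17 (WT) and 14 (p53-null) member tiles and were at or below -10 points in 11 and 6. The second-set shares at the upper limit were 12.14% and 10% of member tiles, against 19.94% and 20.04% of all tiles. At the lower limit they were 7.86% and 4.29%, against 12.19% and 8.06%. By window the first-set mean ran from -0.197% at Klf4 to 3.89% at Pou5f1 in WT cells, and from -1.45% at Tbx3 to 5.62% at Pou5f1 in p53-null cells. The genotype difference in 5hmC had no constant sign, with 8 windows higher and 2 lower in the first set and 5 each way in the second.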

How the data were processed

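Per the labels' protocols, MspI-cut DNA went into RRBS libraries or, with a commercial oxidation kit, oxRRBS libraries. Trim Galore, BSMAP and methylKit on build mm9 are named by the submitters' processing notes. For roles, versions, coverage filters and pooling, nothing was given in the sources used here. The CpG table holds whole percent values of total methylation, deposited by the authors in 1 column per genotype and state. In the tile table the authors deposited fractions, turned into percent here, with differences and q-values; deposited q-values of -1 (43 among member tiles, where the difference is 0) were taken as none. Another 8 columns with undefined headings were not used.

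A CpG or tile belongs to a window when it lies wholly inside it. Positions are printed as deposited. Differences are p53-null minus WT or RA minus naive, and each CpG or tile counts once. The planned tests of single libraries were not run, since no values per library were at hand, and neither were the planned liver comparison nor other network genes, which need mm9 gene positions. Up to 2 CpGs (WT RA difference of at least 25 points) and up to 2 called tiles per window, set and modification were ranked by size for naming; other sites named were chosen after their values were seen. Windows and genes were chosen with earlier results of these data known. Counting was tested on simulated data without noise for the WT RA comparison (330387 CpGs, 200 changed, 200 recovered). Python 3.11.15, numpy 2.4.6, pandas 2.3.3 and matplotlib 3.10.9 were used. Alternatives were other weights, smaller windows, other thresholds and leaving out Esrrb.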

Additional observations from a re-analysis of the deposited data

Results flagged for a closer look

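The difference between p53-null and WT cells was of opposite sign before and after RA in some windows, each from pooled columns, so the difference between states was not tested and its cause was not tested either. Over the 10 windows it was 1.48 points in naive and -0.333 points in RA-treated cells, the latter minus the former being -1.81 points. At Esrrb it was 3.06 and -1.61 points, a change of -4.67 points. At Tfcp2l1 it was 2.92 and -1.04 points, a change of -3.96 points. At Tbx3 it was 0.959 and -0.939 points, a change of -1.90 points. At Klf4 the signs were the other way round, -0.176 and 0.275 points, a change of 0.451 points in a window where nearly all CpGs were close to 0.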

How the results depend on the processing

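Of 64 alternatives, 26 kept the sign of a mean and stayed within 1.5 times the value reported, 34 moved further and 4 changed sign; the cause was not tested except where a threshold itself sets a count. With each window counting once, the means were 2.65 points for the naive and 0.0357 for the RA genotype difference in CpGs, 1.89 for first-set 5mC, 0.686 for first-set 5hmC, -0.496, -0.494 and -0.00224 for total, 5mC and 5hmC of the second set. In the inner 50% of each window they were 0.541 (naive genotype), 3.54 (RA in WT) and 2.70 (RA in p53-null) for CpGs, 1.23 for first-set 5hmC, and -1.83 and -0.662 for second-set total and 5hmC. Without the Esrrb window they were -0.0536 for the RA genotype difference in CpGs, 2.14 for first-set 5mC, and -0.356 and 0.598 for second-set total and 5hmC. Over tiles with values in both sets the 5hmC difference was -0.0366 points in the first and 0.373 in the second set, so the mean 5hmC difference has no stable sign. At the stricter limit (q under 0.01, at least 25 points) the authors' deposited table called 3 first-set tiles higher in total, 7 higher and 0 lower in 5mC, and in the second set 0 lower in total, 1 higher and 0 lower in 5mC. At q under 0.05 with any size the first-set counts in the authors' deposited table were 30 higher in total, 35 higher and 10 lower in 5mC, and the second-set counts 4 lower in total, and 9 higher and 8 lower in 5mC. Shares over all tiles were not computed at these 2 limits, so the counts do not tell whether the windows lie above or below the rest. At 10 points the CpG counts were 26 higher and 3 lower (naive genotype), 8 and 16 (RA genotype), 60 and 1 (RA in WT), and 48 and 1 (RA in p53-null). No paired analysis was possible because every column used pools the libraries of a group and carries no replicate number, and leaving out libraries was not possible either. Depth is unknown, and levels of sparse tiles may rest on few reads.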

Other observations

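Of the 273 member CpGs, 27 in WT and 32 in p53-null cells were lower after RA by any amount. Over all 330387 CpGs these numbers were 38563 and 58553. By at least 10 points, 1 member CpG was lower in each genotype. At Esrrb the CpG at chr12:87769621-87769622 was at 88% in naive WT, 69% in naive p53-null, 75% in RA WT and 70% in RA p53-null cells. It was the most methylated member CpG in naive WT cells and the only one that was lower by at least 10 points after RA in WT cells. In p53-null cells the only such CpG was at chr12:87762667-87762668, also at Esrrb, with 13% in naive and 0% in RA-treated cells. In WT cells that CpG was at 0% in both states. The first-set WT levels of total methylation were highest among member tiles at a pair of adjoining tiles of Zfp42, chr8:44397001-44397200 and chr8:44397201-44397400, at 77.1% and 80.9%, against 64.0% and 74.2% in p53-null cells. Neither difference in total methylation was called, with q = 0.193 and 0.114 in the authors' deposited table. In 5mC these tiles went opposite ways. The first was at 62.1% in WT against 82.4% in p53-null cells, above its own total, and was not called (q = 0.118 in the authors' deposited table). The other was at 81.0% and 58.6%, the WT value just above its own total, and was called lower. All of these were picked after their values were seen.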
